A study of Mus musculus with 4 samples.

Results

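The proteasome subunits, their activators, inhibitor and assembly factors, and the genes that carry and trim peptides for MHC class I were examined in inflammation-experienced regulatory T cells (Treg). Members were the genes with a protein-coding transcript whose symbol is Psm followed by a letter from a to g and a digit, with Tap1, Tap2, Tapbp, Pomp and Erap1 added. The rule found 55 genes of 21901 with a protein-coding transcript. It also took in Psmc3ip, a cofactor of meiotic recombination that is no proteasome subunit and is given apart. The donor was 1 adult male mouse, aged 6 months. Its strain, Foxp3CreERT2 x Rosa26YFP, makes a tamoxifen-activated Cre recombinase from the Foxp3 gene and carries a YFP reporter in Rosa26. The labels call them primary cells and trace them to a bone marrow hematopoietic cell. The 4 polyA RNA-seq libraries are technical replicates 1 to 4 of biological replicate 1, called libraries 1 to 4 below. There is no second condition, so the spread and every p describe technical libraries of 1 animal.

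The proteasome cuts ubiquitin-tagged proteins into short peptides. Its core particle is a stack of rings in which outer alpha subunits gate the entrance and inner beta subunits hold the cutting sites. The regulatory particle on its end binds, unfolds and feeds in the substrate. In lymphocytes, and in other cells under interferon-gamma, the immune catalytic subunits Psmb8, Psmb9 and Psmb10 take the places of Psmb5, Psmb6 and Psmb7, which favours peptides that fit MHC class I. The transporter made of Tap1 and Tap2 moves those peptides into the endoplasmic reticulum, where Erap1 trims them and tapasin, the product of Tapbp, helps load them.

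The libraries held 9284432, 9341328, 9325636 and 6648385 expected counts of genes. All 7 Treg and T cell markers were at 1 TPM (a level scaled to transcript length and to the library) or more in every library, and Foxp3, the lineage factor, was at 20.3, 21.7, 32.8 and 36.4 TPM. Summed erythroid markers stood at 1065 TPM in library 1 and at 4.6, 38.6 and 17.2 TPM in libraries 2 to 4. Summed B cell markers were at 88.8, 43.4, 21.4 and 60.1 TPM. In RNA from a bulk sample, fewer cells of a type and less RNA per cell cannot be told apart.

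Expression of the machinery was broad and high. Of the 55 genes, 53 reached 1 TPM in all 4 libraries, as did 45.4% of all coding genes. Their median was 125.8 TPM, against 0.678 TPM over all coding genes and 20.2 TPM over the 9952 coding genes at 1 TPM or more in every library. The mean passed 100 TPM for 34 of them. Together they held 0.897% ± 0.0172 of all TPM (SD, n = 4 libraries). Psma8 and Psmb11, the tissue-restricted core subunits, were the only members below 1 TPM.

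The immune catalytic genes were summed higher than the constitutive ones, and the balance differed by position. They held 71.6%, 72.6%, 73.0% and 72.2% of the catalytic TPM in libraries 1 to 4, a mean of 72.4% ± 0.592 (SD, n = 4). The estimated-count table gave 72.4% ± 0.286 and the M4 counts per length gave 71.9% ± 0.574. Restricted to transcripts annotated as protein-coding, the share was 63.9% ± 1.22. The immune share was therefore above the constitutive share in every library and every quantification tried.

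The mature subunits begin at a threonine that performs the cut, and the first 60 coding bases from that codon are shown to let each immune gene be read against its constitutive partner. Capitals mark the bases that differ between the partners, and the sequences are GENCODE M21 coding sequences on mm10.
Psmb8: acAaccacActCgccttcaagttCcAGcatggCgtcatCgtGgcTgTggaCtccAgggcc
Psmb5: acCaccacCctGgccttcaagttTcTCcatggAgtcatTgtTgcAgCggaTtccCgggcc
Psmb9: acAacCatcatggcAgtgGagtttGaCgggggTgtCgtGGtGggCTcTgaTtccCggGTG
Psmb6: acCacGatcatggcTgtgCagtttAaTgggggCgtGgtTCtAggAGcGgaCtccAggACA
Psmb10: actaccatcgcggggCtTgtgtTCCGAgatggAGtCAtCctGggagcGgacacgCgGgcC
Psmb7: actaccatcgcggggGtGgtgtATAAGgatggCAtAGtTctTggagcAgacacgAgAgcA
The threonine is codon 73 of Psmb8 and 60 of Psmb5, codon 21 of Psmb9 and 34 of Psmb6, and codon 40 of Psmb10 and 44 of Psmb7. The partners differ at 13, 19 and 17 of the 60 bases in that order of pairs. Over the aligned coding sequence they are identical at 67.4%, 66.2% and 63.3% of bases.

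At the beta5 position, Psmb8 (also called LMP7, chr17:34197721-34201454 on the plus strand) was at 819, 778, 765 and 717 TPM. Psmb5 (chr14:54614119-54618022, minus strand) was at 134, 98.6, 103 and 95.2 TPM. Psmb8 was the highest of the 55 genes and lay above 99.3% of coding genes, and its lowest library was far above the highest of Psmb5. The mean log2 ratio was 2.85 ± 0.164 (SD, n = 4), a 7.19-fold excess present in 4 of 4 libraries. The immune share at this position was 87.8% ± 1.26.

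At the beta2 position, Psmb10 (MECL-1, chr8:105935735-105938444, minus strand) was at 307, 289.6, 294 and 317 TPM. Psmb7 (chr2:38588036-38644087, minus strand) was at 71.8, 71.6, 89.8 and 82.9 TPM. The groups of values did not overlap, with a mean log2 ratio of 1.94 ± 0.165 and a 3.83-fold excess of Psmb10 in 4 of 4 libraries. The immune share was 79.3% ± 1.92, and 66.1% ± 3.12 from coding transcripts only. Exons of Psmb7 and Nek6 share 405 bases on opposite strands, and Nek6 was at 3.23 TPM.

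At the beta1 position the immune gene did not exceed its partner. Psmb9 (LMP2, chr17:34181987-34187764, minus strand) was at 253, 294, 256 and 254 TPM, and Psmb6 (chr11:70525367-70527858, plus strand) was at 339.97, 343, 293 and 318 TPM. Psmb9 was the lower of the pair in each of the 4 libraries, although its highest value, in library 2, just passed the lowest of Psmb6, in library 3. The mean log2 ratio was −0.29 ± 0.105 and the immune share 44.97% ± 1.80. The share was 48.2% ± 1.34 in the estimated-count table, 38.4% ± 1.25 by M4 counts per length and 36.4% ± 2.44 from coding transcripts only. Without the length correction the log2 ratio was 0.55, on a scale that cannot be read between genes of unequal length. Psmb9 shares 212 exonic bases with Tap1 on the opposite strand, and Tap1 was at 154 TPM, so the division of reads there is uncertain and its part in this ratio was not tested.

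The summed level also differed between the positions. Immune and constitutive partners added up to 878 ± 58.1 TPM at beta5, 588 ± 37.3 TPM at beta1 and 381 ± 15.8 TPM at beta2 (SD, n = 4). Each sum was above the 264.9 TPM median of the structural beta genes. None of these sums overlapped another in any library.

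**Figure D1:**
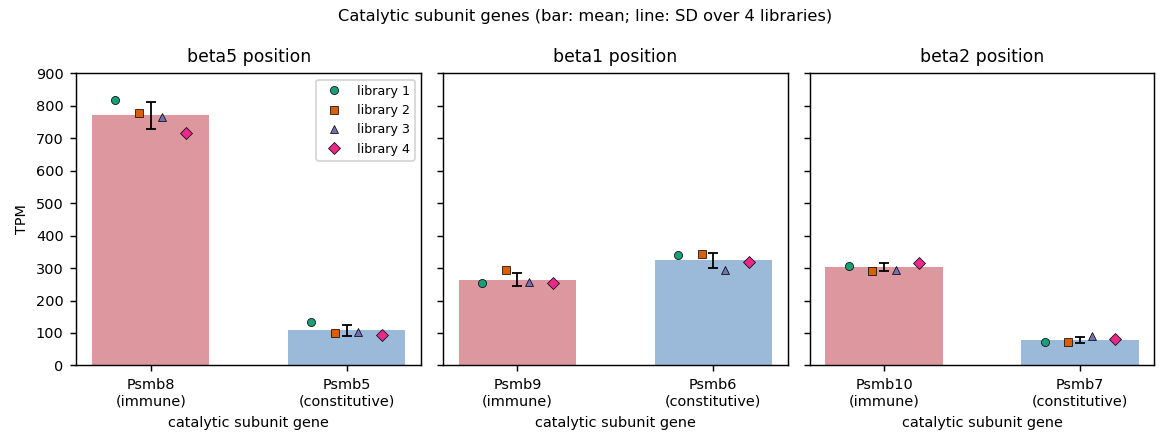
TPM of the immune and constitutive catalytic subunit genes at the beta5, beta1 and beta2 positions (bars: mean; lines: SD over 4 libraries; points: single libraries). Psmb8 and Psmb10 stand far above Psmb5 and Psmb7, while Psmb9 at a mean of 264 TPM lies below Psmb6 at 324 TPM.

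Tested over libraries, no pair could be called. The two-sided exact sign-flip permutation test gave p = 0.13 for each of the 12 pairs examined, the smallest value that 4 libraries allow, and p = 0.13 after Benjamini-Hochberg adjustment. Each pair had the same sign in 4 of 4 libraries.

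The thymus form of beta5, Psmb11, and the testis form of an alpha subunit, Psma8, were near 0. Psmb11, which thymic cortical epithelium uses, was at 0, 0.03, 0 and 0 TPM, on 1 expected count in all libraries. Of the 4 thymic epithelial markers, Foxn1, Krt5 and Krt8 had no counts. Prss16 was at 0.35, 0.42, 0.18 and 0.33 TPM, on 11 counts in all libraries. Psmb11 is also the gene on which the tables disagreed most: the estimated-count table gave 0.619, 0.782, 1.37 and 1.42 TPM on 43.5 to 113.5 estimated counts, whereas the M4 table held 0 counts in each library. Which table is right was not tested. Psma8 was at 0.19, 0.73, 0.91 and 0.24 TPM on a mean of 2.5 counts, and its partner Psma7 averaged 342 TPM. A count of 3 corresponded to 0.321 to 0.451 CPM (counts scaled to the library total) in these libraries, so both lay at or near the level of single reads.

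The alpha ring, whose 7 subunits are each present in equal number in the particle, spanned 2.72-fold. Psma7 was the highest, at 343, 339, 339.5 and 347 TPM, and varied less than any other member in TPM, with a coefficient of variation of 1.09%. Psma2 was the lowest, at 115, 120.2, 134 and 134 TPM. The values of the pair were well apart in every library. The other 5 genes, Psma1, Psma3, Psma4, Psma5 and Psma6, averaged between 140.3 TPM for Psma5 and 271 TPM for Psma3. The median of the ring was 199 TPM ± 13.0 (SD of the library medians).

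The structural beta genes, which build the inner rings without cutting, had a median of 264.9 TPM ± 12.8. Psmb3 was the highest, at 379.9, 401, 349.6 and 297 TPM, and Psmb4 the lowest, at 98.0, 77.5, 90.7 and 59.4 TPM. Psmb4 stood well below Psmb1 at 278 TPM and Psmb2 at 252 TPM. Only 54.5% ± 14.3 of its TPM was in its coding transcript, and 45.5% in transcripts annotated as retained introns.

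**Figure D2:**
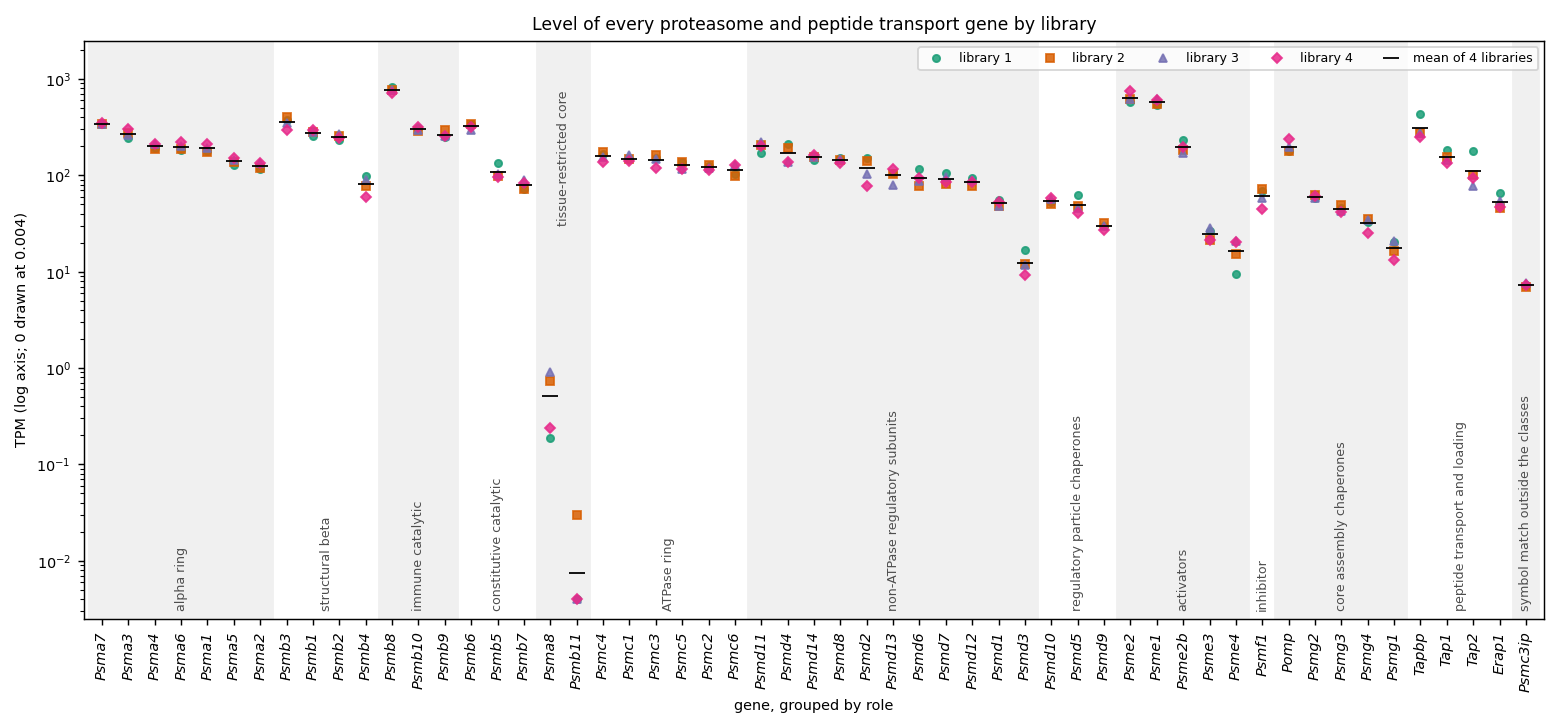
TPM of the 55 genes in each library on a log axis, grouped by role and ordered by mean within a role (points: libraries; dashes: means). Most genes lie between 10 and 1000 TPM, Psmb8, Psme2 and Psme1 are at the top, and Psma8 and Psmb11 are at the bottom.

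The ATPases that unfold the substrate formed the most even class. Psmc4 was the highest, at 169, 176, 154 and 136 TPM, and Psmc6 the lowest, at 102, 98.8, 128 and 127 TPM. Their means differed by 1.39-fold, and the values of the pair came closest in library 4. Psmc1, Psmc2, Psmc3 and Psmc5 averaged between 122 TPM for Psmc2 and 149.5 TPM for Psmc1. The class median was 137 TPM ± 9.50.

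The 11 non-ATPase subunits, which recognise and deubiquitinate substrates and hold the lid together, spanned 16.1-fold around a median of 101 TPM ± 9.89. Psmd11, a lid scaffold subunit, was the highest at 169.6, 204.9, 223 and 204 TPM. Psmd3, also a lid subunit, was the lowest at 16.7, 12.1, 11.8 and 9.35 TPM. Psmd14, the deubiquitinase of the lid, averaged 155 TPM. The remaining subunits, Psmd1, Psmd2, Psmd4, Psmd6, Psmd7, Psmd8, Psmd12 and Psmd13, averaged between 51.4 TPM for Psmd1 and 169.8 TPM for Psmd4. Taken over ATPases and non-ATPase subunits, the 17 regulatory particle genes had a median of 122 TPM, and the 11 alpha and structural beta genes had 200.1 TPM. Of the counts of Psmd11 and its near-identical copies, 7.39% lay on the copies, chiefly the noncoding A730017L22Rik, which is 97.8% identical over 79.8% of the Psmd11 transcript.

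Assembly factors were lower. The 3 chaperones of the regulatory particle had a median of 49.2 TPM ± 4.87, with Psmd10 (gankyrin) at 52.5, 50.4, 56.8 and 58.1 TPM, Psmd5 at a mean of 49.2 TPM ± 9.65, and Psmd9 at 30.2, 32.4, 30.2 and 27.3 TPM. Among the core assembly chaperones, Pomp, which is consumed as the core matures, was at 179, 177, 196 and 236 TPM. It stood far above the Psmg genes, whose dimers line up the alpha ring, with Psmg1 lowest at 20.3, 16.6, 20.8 and 13.3 TPM. Psmg3 was at 45.7, 49.9, 42.4 and 41.98 TPM, between Psmg2 at a mean of 59.96 TPM and Psmg4 at 32.0 TPM. Psmf1, the inhibitor PI31, was at 68.5, 71.6, 57.7 and 45.03 TPM, lowest in library 4.

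Activators split into a high and a low group. Psme1 and Psme2, the interferon-inducible alpha and beta chains of PA28, were at 532, 553, 615 and 611 TPM and at 573, 618, 627 and 748 TPM. Psme3, the nuclear PA28 gamma, was at 26.8, 21.4, 28.5 and 21.5 TPM, and Psme4 (PA200), a nuclear single-chain activator, was at 9.54, 15.2, 20.7 and 20.2 TPM. Psme1 exceeded Psme3 by 23.6-fold and Psme2 exceeded it by 26.1-fold, in 4 of 4 libraries. As log2 ratios these were 4.56 and 4.71, against 6.12 and 6.50 by M4 counts per length. Without the length correction they were 2.98 and 2.69, on a scale that cannot be read between genes. The log2 ratio of Psme1 to Psme2 was −0.15 ± 0.111. It was −0.93 in the estimated-count table, −0.62 from coding transcripts only and −0.39 by M4 counts per length. Psme4 lay below Psme3 by a log2 ratio of −0.63 ± 0.594 in the main table, but above it by 0.35 in the estimated-count table and by 0.99 by M4 counts, so their order depended on the table.

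Psme2 has a near-identical copy, Psme2b (chr11:48945354-48946190, minus strand), whose transcript matches at 99.4% of the bases over 94.9% of its length. Psme2b was at 232, 182, 171 and 196 TPM, and 25.3% of the counts of Psme2 and its copies lay on the copies. How the authors' tables divided reads between the pair is uncertain. Summing the pair, an alternative added after seeing the data, gave a log2 ratio of −0.53 for Psme1 over Psme2.

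Peptide transport and loading was led by Tapbp. Tapbp (tapasin, chr17:33915899-33929292, plus strand) was at 429.6, 277, 278 and 249 TPM, high in library 1. Tap1 (chr17:34187553-34197225, plus strand) was at 184, 156, 143 and 134 TPM, and Tap2 (chr17:34203527-34216321, plus strand) at 178, 100.5, 77.8 and 92.9 TPM. Both chains of the transporter were close in library 1 and further apart in the others, with a mean log2 ratio of Tap1 to Tap2 of 0.52 ± 0.347. Erap1 (chr13:74639568-74693201, plus strand) was the lowest of the class at 65.3, 46.1, 54.0 and 46.8 TPM, with a log2 ratio to Tap1 of −1.54 ± 0.149. Tapbp stood 1.97-fold above Tap1 in the mean, and Erap1 2.91-fold below it. As a log2 ratio Tapbp over Tap1 was 0.98, against 0.31 by M4 counts per length. The 834 exonic bases that Erap1 shares with Cast, on opposite strands, could not be assigned, since the strand setting is not given in the sources used here. Cast was at 157 TPM.

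**Figure D3:**
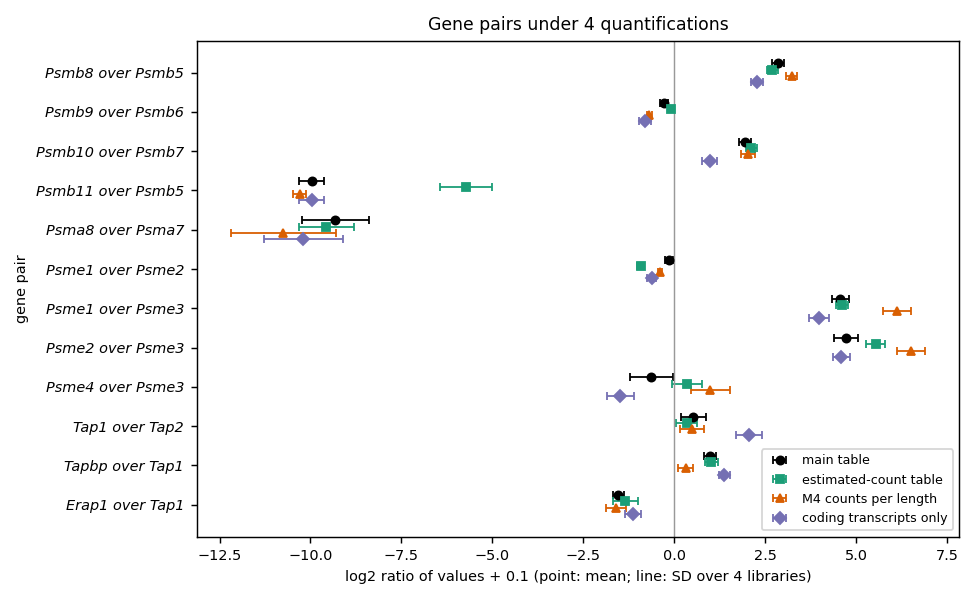
Mean log2 ratio of each of the 12 gene pairs (lines: SD over 4 libraries) by the main table, the estimated-count table, the M4 counts per length and coding transcripts only. Psmb8 over Psmb5 and Psmb10 over Psmb7 stay right of 0 and Psmb9 over Psmb6 stays left of it by all 4, Psme4 over Psme3 crosses it, and Tap1 over Tap2 is 2.06 from coding transcripts only, against 0.52 in the main table.

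Psmb9, Tap1, Psmb8 and Tap2 are neighbours in the MHC on chromosome 17. Psmb9 and Tap1 are divergent and their annotated first exons overlap by 212 bp at chr17:34187553-34187764. Psmb8 begins 495 bp after Tap1 ends, and Tap2 begins 2072 bp after Psmb8. Psme1 and Psme2 are neighbours on chromosome 14, 5911 bp apart, as are Psmb5 and Psmb11, 3410 bp apart. The MHC neighbours were at unequal levels, from a mean of 112 TPM for Tap2 to 769.9 TPM for Psmb8.

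Transcript annotation changed the picture most for Tap2. The transcript Tap2-202, annotated as a retained intron, held 76.4%, 78.5%, 71.4% and 70.3% of the gene's TPM, and coding transcripts held 25.8% ± 3.93 (SD, n = 4). In the estimated-count table the coding share was 18%. Psma3 was the other member led by a noncoding transcript, with Psma3-203 at 32.0% ± 1.98 and a coding share of 41.6% ± 3.80. In the remaining 51 of the 53 genes at 1 TPM or more the leading transcript was coding, and in 28 it held over 80% of the gene.

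The immune subunits were among the genes with much noncoding annotation. Psmb10 had 50.2% ± 3.29 in its single coding transcript and 31.4% in the retained-intron transcript Psmb10-205. Psmb8 had a coding share of 67.0% ± 1.31, with 30.5% in the retained-intron transcript Psmb8-205, and Psmb9 had 61.45% ± 6.40. By contrast Psmb5 had 100% and Psmb7 98.1% in coding transcripts, and Psmb6 had 87.5%. In the estimated-count table the coding share was 34.3% for Psmb9, 31.1% for Psmb10 and 54.7% for Psmb8. Retained introns held over 30% in 8 of the 53 genes, or 15.1%, against 17.4% of the 9952 coding genes at 1 TPM. The median coding share was 91.4% over the 53 genes and 85.7% over those 9952. The main and the estimated-count table named the same leading transcript in 47 of 53 genes, and Psmb9, Psmb1, Psmb4, Psmd4, Psme4 and Pomp were those where they differed.

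**Figure D4:**
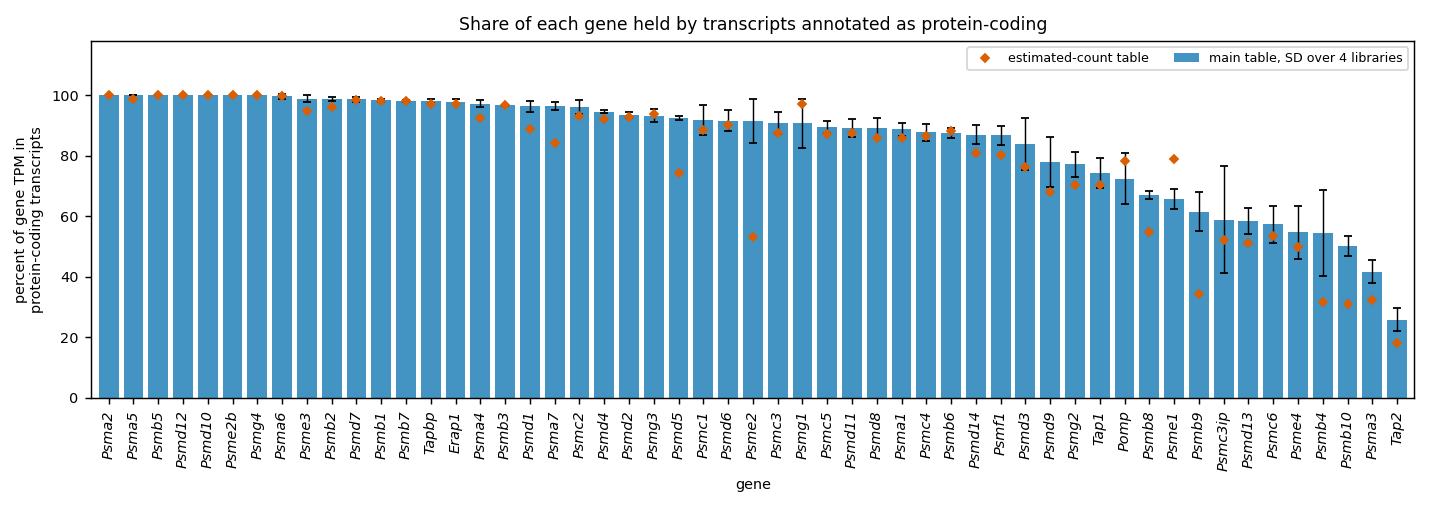
Percent of each gene's TPM in transcripts annotated as protein-coding, for the 53 genes at 1 TPM or more (bars: mean of the main table; lines: SD over 4 libraries; diamonds: estimated-count table). Tap2 is lowest at 25.8%, followed by Psma3 at 41.6% and Psmb10 at 50.2%, and most genes lie above 90%.

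The libraries were then compared gene by gene, to see which members varied beyond counting noise. A Poisson likelihood ratio test on rounded expected counts with TMM-scaled library sizes, adjusted by Benjamini-Hochberg over all genes, called 68.4% of the 13045 genes whose mean count reached 10. It called 49 of the 53 members tested. Members are abundant, and where the mean count reached 100 the test called 82.7%, and 49 of 51 members. Psmd12 and Psmd10, a lid subunit and a chaperone, were not called at an adjusted p of 0.169 and 0.452 in this Poisson test, nor were Psmg4 and Psmc3ip. Psma8 and Psmb11 had too few counts. A difference of at least 2-fold in addition was found in 15.7% of all genes tested and in 2 members, Tap2 and Psmd2.

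The spread of the members between libraries was small. The median SD of log2 CPM over libraries was 0.144 for the 53 members, 0.261 for the 13045 genes and 0.210 for the 8340 genes averaging 100 counts or more. The median highest-to-lowest fold was 1.25 for members and 1.496 for all genes. Psmd12, Psmd10, Psma4, Psmb10 and Psmc3ip were the steadiest, at an SD of 0.0653, 0.0665, 0.0740, 0.0746 and 0.0792. Psmd12 was at 93.2, 77.3, 89.2 and 85.1 TPM and Psma4 at 192, 188, 211 and 209.6 TPM. Psmb10 is the immune gene among the 5, with a highest-to-lowest fold of 1.13.

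Tap2 was the most variable of the tested members, with an SD of 0.558. Its log2 CPM in library 1 was 1.00 above the mean of the other 3, and its highest-to-lowest fold was 2.37, or 1.51 without library 1, which ends its place among the genes of at least 2-fold. Psmd2, a base subunit that docks ubiquitin receptors and substrates, followed with an SD of 0.506 and TPM of 153, 143, 102 and 77.4. It was high in libraries 1 and 2 and low in libraries 3 and 4, with a fold of 2.06, which was 1.95 without library 2 and 1.65 without library 4. Psmd4, a ubiquitin receptor, had an SD of 0.367 and TPM of 213, 192, 137 and 137, again higher in libraries 1 and 2. Psme4, at an SD of 0.367, was lowest in library 1, and Psmf1, at 0.343, in library 4.

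The medians of some roles stood apart in a library. Peptide transport and loading was 0.44 higher in library 1 than in the mean of the others, as the median log2 difference of its 4 genes, and in library 4 that median was −0.35. The alpha ring had −0.185 in library 1 and 0.11 in library 4. Members of one role could also differ in sign, as Psmd2 at 0.51 and Psmd11 at −0.26 did in library 1. All 4 transport genes were above the mean of the other libraries in library 1, from 0.18 for Erap1 to 1.00 for Tap2. For Erap1 that difference was 0.08 by M4 counts, and the estimated-count table gave 30.3, 22.1, 31.2 and 32.05 TPM, so its highest library depended on the table. In TMM-scaled log2 CPM, library 2 held the highest value of 29 of the 53 members and lay above the mean of the other 3 in 45, whereas 54.4% of all genes tested did so. With plain library totals in place of TMM sizes, library 2 was above the others in 34 members. The median difference was then 0.051 for members and −0.058 for all genes tested, against 0.149 and 0.04 with TMM sizes. On the TPM scale, chosen after seeing the data, library 2 was the highest in 11 and above the others in 23 of the 53, against 36.7% of all genes tested. The median difference there was −0.041 for members and −0.12 for all genes. Most members were therefore higher in library 2 in CPM but not in TPM, while their median was above that of all genes on both scales.

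**Figure D5:**
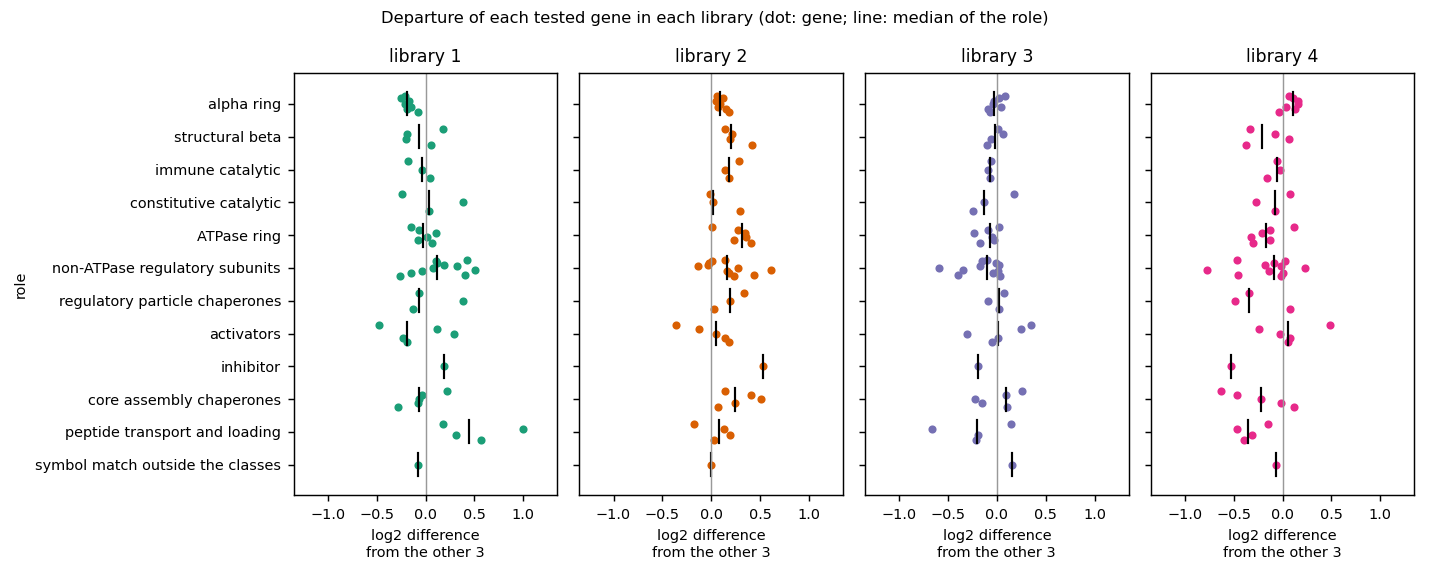
Log2 CPM of each tested gene in a library minus the mean of the other 3, by role (dots: genes; lines: role medians). The peptide transport genes lie right of 0 in library 1 and left of it in library 4. Most genes lie right of 0 in library 2 on this scale, whereas in TPM 23 of the 53 did, against 36.7% of all genes tested.

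Base composition and markers of other cell types were set beside these differences. Over the 53 members, the departure in library 4 and the GC content of the leading transcript had a Pearson r of −0.55 and a Spearman rho of −0.62, against −0.25 and −0.36 over all genes, and in library 1 they had an r of 0.43 and a rho of 0.44, against 0.20 and 0.24. These are descriptions across genes that share the same libraries. The 5 erythroid markers summed to 1065 TPM in library 1 against 4.6 to 38.6 TPM in the others, with Hba-a1 at 0 in library 2 and Hbb-bt at 0 in library 4. Library 1 also had the highest summed B cell markers, all 4 of them present. Its 5 monocyte and macrophage markers summed to 31.8 TPM, against 10.8, 8.07 and 19.5 TPM in libraries 2 to 4, with Adgre1 at 0 in library 3. Its 4 granulocyte markers summed to 8.91 TPM, against 0.11, 0.42 and 3.02 TPM, on 8 counts of S100a8 and 13 of S100a9, with Elane and Mpo at 0. In library 4 the median departure of peptide transport was −0.35. Its B cell, monocyte and granulocyte sums were above those of libraries 2 and 3, and its erythroid sum only above that of library 2. The part of GC content and of these cells in the result was not tested.

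The 3 quantifications were set side by side to show which members depend on the table. Against the main table, the estimated-count table gave a median log2 difference in TPM of −0.93 for members and −0.86 for 10549 coding genes. Among members, Psmb11 alone departed from the coding median by over 2-fold, and 3.37% of those coding genes did so. The M4 counts gave a median log2 difference in CPM of 0.64 for members and 0.09 for 10439 coding genes. Of the 55 members, 46 lay above the coding median. Of those coding genes, 17.3% were off by more than 2-fold. Among members, Psmg3, an alpha-ring assembly chaperone, alone was, at −1.54 relative to that median. Psmg3 had M4 counts of 95, 121, 82 and 64 and estimated counts of 299, 406, 305 and 211. It shares 280 exonic bases on the same strand with Gm26938, which was at 0 TPM in the main table. Psme3 at −0.93 and Psmg4 at 0.93 came next.

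Apart from Psme2 and Psme2b, the copies of the members were low in the main table. The highest was A730017L22Rik, a copy of Psmd11, at 7.05 TPM on a mean of 112.9 counts. How reads were divided between near-identical copies is uncertain. A search of the annotated transcripts at 90% identity over 50% of the length found 23 distinct copies of 12 members, 20 of them pseudogenes, while Psme2 and Psme2b matched each other. The annotated pseudogenes Psmb5-ps, Psmb6-ps2 and Psmb7-ps2 were at 0.0525, 0.06 and 0.05 TPM, and Psmb6-ps at 0. The highest pseudogene in the search was Gm6542, a copy of Psma4, at 6.41 TPM, against 200.1 TPM for Psma4.

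Promoter sequences were read for 46 of the 55 genes that matched the RefSeq windows of GRCm38.p6, from 250 bases before to 50 after the start site. Each motif was searched on both strands. The ETS motif CCGGAAG, the letters bound by the ETS family of factors, was in 16 of 46 windows, or 34.8%, against 9.93% of all 27025 genes with a window and 23.6% of the 7942 of them that code for a protein and reached 1 TPM in every library. It was in 3 of 5 ATPase, 6 of 9 non-ATPase, 3 of 4 core assembly, 2 of 5 activator and 1 of 7 alpha ring windows, and in Psmc3ip. The motif was in 0 of 3 immune and 0 of 2 constitutive catalytic windows. It was also absent from the 2 structural beta, 3 transport, 3 regulatory particle chaperone, 1 inhibitor and 1 tissue-restricted windows. The sites of the matched ATPase genes that hold it are shown with the motif in capitals, as examples of that class, on the gene's own strand.
Psmc1 at chr12:100110163-100110192, plus strand: tggtggatgcaCTTCCGGcggtggcgattt
Psmc2 at chr5:21786712-21786741, plus strand: gcgcggagctaCTTCCGGtggggaagagaa
Psmc6 at chr14:45329713-45329742, plus strand: aggcgggccagCCGGAAGgggcggagccag
Psmc2 has a second window, whose site lies at chr5:21785180-21785209. None of the printed sites overlapped another motif searched.

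Interferon-related motifs were searched in the same windows. The core of the interferon-stimulated response element (GAAA, then 2 bases of any kind, then GAAA) was in 6 of 46 windows, or 13.0%, against 3.99% of all promoters and 3.99% of the expressed coding ones, in Erap1, Psmb3, Psmd4, Psmd9, Psme1 and Psmg4. The GAS motif TTCNNNGAA was in 3, or 6.52%, against 9.55% and 8.45%, in Psmb8, Psmd2 and Psmg1. The response element core was in 0 of 3 immune catalytic and 1 of 3 transport windows, and the GAS motif in 1 of 3 and 0 of 3. Of all these matches only the sites of Psmb8, the highest member, and of Psme1 and Erap1 are shown. They were picked because these genes belong to the interferon-inducible side of the machinery.
Psmb8 GAS at chr17:34198088-34198117, plus strand: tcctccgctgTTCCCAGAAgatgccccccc
Psme1 response element at chr14:55578493-55578522, plus strand: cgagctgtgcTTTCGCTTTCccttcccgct
Erap1 response element at chr13:74639839-74639868, plus strand: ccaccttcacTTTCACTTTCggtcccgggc
The NF-kappa-B motif (GGGA, 1 base of any kind, then TTTCC) was in 0 of the 46, against 0.466% of all promoters and 0.478% of the expressed coding ones. The antioxidant response core TGANNNNGC, which the factor Nfe2l1 is known to use when it raises proteasome genes, was in 26, or 56.5%. That compares with 45% of all promoters and 48.1% of the expressed coding ones. The NF-Y letters CCAAT were in 17, or 37.0%, against 41.1% and 43.6%. The windows of Psmb9 and Tap1 overlap, so the same antioxidant site and the same CCAAT site were counted for both genes. The match of the GAS letters in Psmg1, and that of the response element in Psmg4, overlapped a match of the antioxidant letters. A match or its absence in a window says nothing here about binding.

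Genes linked to the proteasome outside the rule were also present. Of 25 listed, 22 were matched, all 22 were at 1 TPM or more in every library with a median of 36.1 TPM, and 15, or 68.2%, were called between libraries by the same test, against 68.4% of all genes tested. The segregase Vcp averaged 114 TPM ± 31.3, and Tpp2, a peptidase that trims proteasome products, 87.7 TPM ± 16.9. Thop1, a cytosolic peptidase, Ubqln2, a shuttle, and Akirin2, which brings proteasomes into the nucleus, were lowest at 1.87, 2.23 and 6.81 TPM. Nfe2l1 was at 25.8, 8.59, 13.5 and 17.8 TPM, highest in library 1.

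All 13 other genes of class I presentation were present, and 12 were called between libraries, where the test called 68.4% of all genes and 82.7% of those averaging 100 counts. B2m, the invariant light chain, averaged 7288 TPM ± 829, H2-K1 5654 ± 276 and H2-D1 3683 ± 1064. The class I heavy chain genes have near-identical relatives, so the division of reads among them is uncertain. Rfx5, Rfxap and Rfxank, the subunits of the RFX factor at class I promoters, were at 7.99, 3.16 and 56.5 TPM, and the lowest 3 of the list. Of the regulators of the immune subunits and class I genes, Irf1 averaged 282 TPM ± 17.6 and Nlrc5 133 TPM ± 28.9. Psmc3ip, outside the proteasome, was at 7.31, 6.89, 7.56 and 7.37 TPM.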

How the data were processed

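The members and lists were chosen with earlier results of these data known. Per the submitters' notes beside the files, 3 quantifications were deposited. The main one gives expected counts and TPM per gene and transcript (mm10, GENCODE M21, transcriptome alignment), and also each transcript's percent of its gene, per the file headers. The estimated-count table holds TPM and estimated counts, deposited by transcript, from reads and an index. The M4 table holds counts of whole reads by gene, as deposited, from a genome alignment with GENCODE M4. Programs and strand settings: not given in the sources used here. The labels give fragments of 100 to 300 bp.

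Expected counts were rounded for tests. Pairs used log2((TPM + 0.1)/(TPM + 0.1)), which understates differences of low genes. edgeR 4.0.16 gave TMM factors and DESeq2 1.42.0 other size factors (R 4.3.3). The Poisson test was first tested on simulated data. M4 counts were divided by M21 effective lengths and scaled to the TPM total. Copies were searched with blastn 2.17.0, and partners were aligned with Biopython 1.88 on coding bases in place of the planned proteins. Rows outside genes (0.133% to 0.504% of counts) were left out. Depth covers counting error only. Values by library are given for the catalytic, activator, transport, inhibitor and tissue-restricted genes, Pomp, the extremes of each role, the 5 most variable and 5 steadiest members and those whose tables differed by over 2-fold. Python 3.11.15, numpy 2.4.6, pandas 2.3.3 and scipy 1.17.1 were used.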

Additional observations from a re-analysis of the deposited data

Results flagged for a closer look

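In 65 sets of 4 libraries, the 53 members at 1 TPM or more and the 12 pair ratios, 2 had a library that stood apart by Dixon's 95% limit for 4 values, and chance flags about 1 in 20. Psmb9 was at 294.24 TPM in library 2, against 253.16 to 255.93 TPM in libraries 1, 3 and 4, with a gap of 0.933 of the whole range. Tapbp was at 429.64 TPM in library 1, against 248.93 to 278.47 TPM in the others, with a gap of 0.837 of the range.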

How the results depend on the processing

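No paired analysis was possible because there is 1 group. Without length correction, Psmb9 over Psmb6 (log2 0.547) and Psme1 over Psme2 (0.295) reversed. Psme4 over Psme3 reversed in the estimated-count table (0.352) and by M4 counts per length (0.986). No other pair reversed in the 9 or 10 alternatives run for each, and none reversed when a library was left out. Role medians shifted with the table. The estimated-count table gave 103 TPM for the alpha ring, 139.7 for structural beta, 179.5 for immune and 57.99 for constitutive catalytic genes, 0.6283 for tissue-restricted genes, 69.06 for ATPases, 54.82 for non-ATPase subunits, 23.58 for their chaperones, 96.89 for activators, 29.62 for the inhibitor, 25.12 for core chaperones and 66.76 for transport. M4 counts per length gave 263.8, 394.3, 510.1 and 126.6 TPM for the alpha ring, structural beta, immune and constitutive genes. They gave 225.1 for ATPases, 158.6 for non-ATPase subunits, 66.01 for their chaperones, 145.2 for activators, 64.03 for core chaperones and 169.6 for transport. Chosen after seeing the data, the estimated-count table was rescaled over coding genes. Immune genes (350.5), tissue-restricted genes (1.229) and core chaperones (49.2) still lay beyond 1 SD of the library medians from the main table. All other roles came within it, such as the alpha ring at 201 against 199.3 TPM and ATPases at 135.1 against 136.9 TPM. Also chosen after seeing the data, plain totals put 31 members higher in library 3 than in the others, against 20 with TMM sizes. All genes tested shifted as well, from a median log2 difference of −0.011 with TMM sizes to 0.071, and members from −0.049 to 0.033. In TPM, 23 members were higher in library 2, against 45 with TMM sizes, and of all genes tested 36.7% against 54.4%. The count of members called between libraries was 38 to 51, of 51 to 54 tested, under all alternatives. The share of all genes called ranged from 52.4% to 82.7% under the same alternatives. With a library left out, 38 to 47 members were called, and 54.4% to 62% of all genes. Leading-transcript shares of the 53 genes at 1 TPM or more were each set against the estimated-count table and against expected counts. They moved beyond 1 SD in 64 of these comparisons, which was most of them. The cause of these shifts was not tested. With 1 animal, nothing here measures variation between mice.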
